A study of Homo sapiens with 2 samples.

Results

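Translation initiation factors are the proteins that bring the ribosome, the initiator tRNA and the mRNA together at a start codon. The genes for them were followed in NB4, a human line of acute promyelocytic leukemia (APL) with the PML/RARα fusion protein, after knockdown of the long non-coding RNA CRNDE. A gene was taken as a member when its listed name was EIF followed by a digit and then only capitals or digits, and names ending in P plus digits were left out. This gave 50 members among 11619 listed genes. The name rule selected the members without their values. It left out 12 further names, of which 9 are processed pseudogenes and 3 are the genes of the eIF4E-binding proteins (EIF4EBP1, EIF4EBP2 and EIF4EBP3). These are described beside the members they belong to.

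There were 2 libraries of total RNA, each from NB4 cells on day 3 of lentiviral infection. In sh-CRNDE the virus carried an shRNA against CRNDE, and in sh-Control an shRNA with no target. Both groups therefore share infection and expression of a hairpin, and the sources used here do not give which CRNDE shRNA was sequenced. Each group was 1 library of 1 cell line, so no difference below has a replicate check, no p-value is given, and an effect of the shRNA cannot be told apart from ordinary variation from one library to another. The values are FPKM (fragments per kilobase of transcript, adjusted for the number of mapped fragments), which keep no read counts, so the depth is unknown. The change of a gene is the sh-CRNDE value of log2(FPKM + 1) minus the sh-Control value, and the added 1 understates the change of low genes. A gene is called past 1.5-fold when its change is more than 0.585 from 0 in either direction.

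The targeted gene CRNDE was at 5.92 FPKM under sh-Control and 1.85 under sh-CRNDE. Of 6 markers of promyelocytes, 5 are listed, from 4.46 to 1135 FPKM in sh-Control and from 3.74 to 738 FPKM in sh-CRNDE, while ELANE is not among the listed genes. The 5 summed to 1404 FPKM in sh-Control and 813.5 in sh-CRNDE, each of them lower in sh-CRNDE, and the part of this difference in the results below was not tested. Of the markers of other cell types, EPCAM was at 4.82 FPKM under sh-Control and 4.49 under sh-CRNDE, and CD3E, HBB, COL1A1 and GFAP are not among the listed genes.

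Initiation begins when eIF2, loaded with GTP and initiator tRNA, joins the small ribosomal subunit with eIF1, eIF1A, eIF3 and eIF5. The cap-binding complex eIF4F, made of eIF4E, eIF4G and the helicase eIF4A, brings the subunit to the mRNA, and eIF4B and eIF4H stimulate the helicase. The subunit then scans to a start codon, and eIF5B joins the large subunit. The exchange factor eIF2B reloads eIF2 with GTP, and kinases that phosphorylate the alpha subunit of eIF2 block this step under stress. The cap-binding step is held back by eIF4E-binding proteins when mTOR signalling is low.

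Initiation factor genes were among the well expressed genes of NB4. Of the 50 members, 37 were at or above 10 FPKM in sh-Control and 40 in sh-CRNDE, and none is listed at 0. The median over the members was 27.0 FPKM under sh-Control and 35.4 under sh-CRNDE, against 3.95 and 3.89 FPKM over all listed genes. The members took 1.41% of the FPKM sum in sh-Control and 1.34% in sh-CRNDE. The mitochondrial rRNA gene MT-RNR2 is listed at 0 under sh-Control and reached 27614 FPKM in sh-CRNDE, and without it the share in sh-CRNDE was 1.60%. The summed level of the members was 1987 FPKM under sh-Control and 2287 under sh-CRNDE. Over the 47 members other than EIF1AX, EIF4H and EIF5B, the sum was 1912 FPKM under sh-Control and 2035 under sh-CRNDE.

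**Figure D1:**
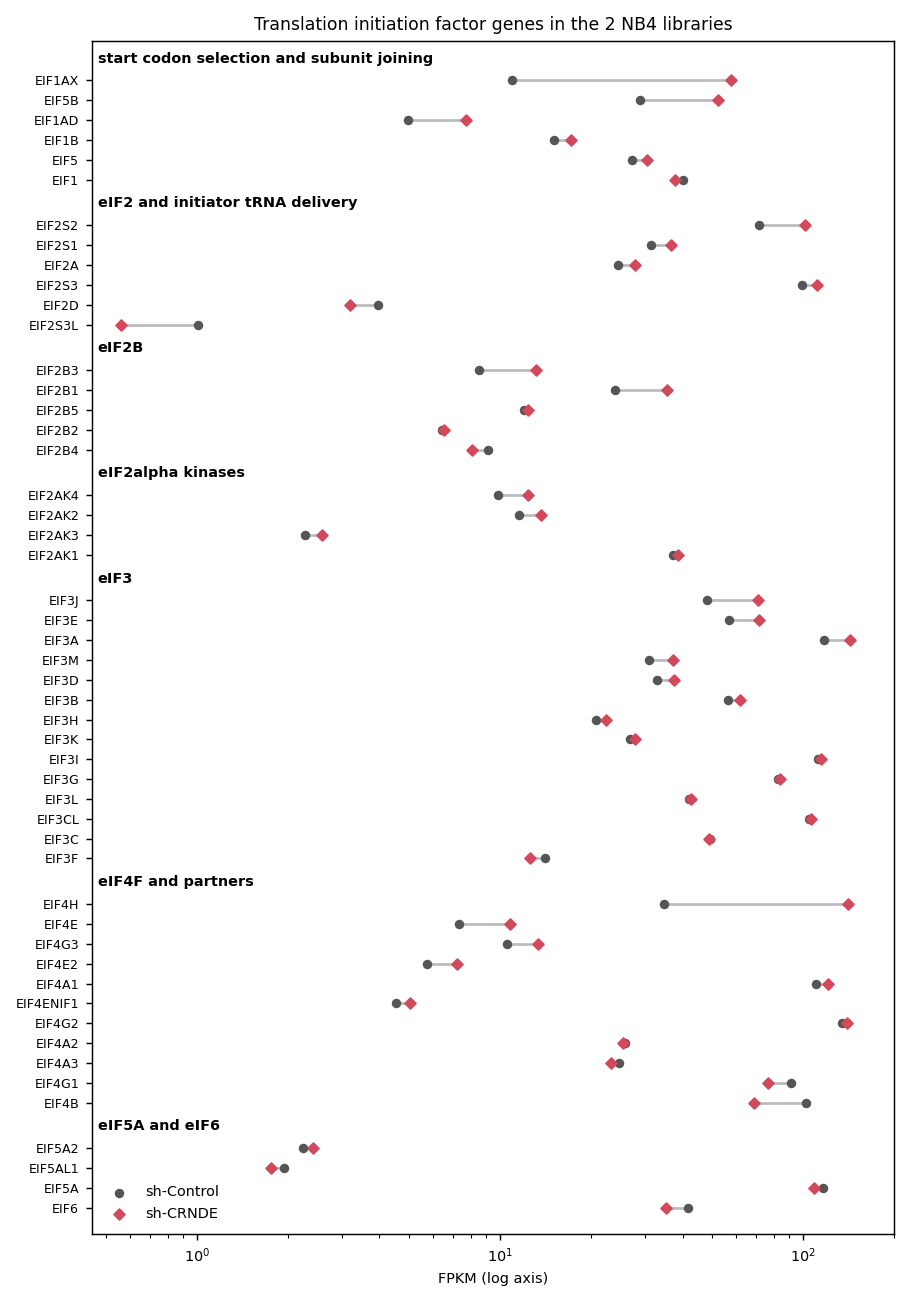
FPKM of each of the 50 members on a log axis, grouped by role, with a circle for the sh-Control library, a diamond for the sh-CRNDE library and a line between them. EIF1AX (10.97 and 57.97 FPKM) and EIF4H (34.8 and 141.1 FPKM) have the longest lines, and most other pairs lie close together.

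Most members were slightly higher in sh-CRNDE, and a few stood far out. The change was above 0 for 37 of the 50 members (74.0%), against 49.2% of all listed genes and 53.8% of 3004 genes whose mean was 10 FPKM or more. The median change of the members was 0.13, with the middle of the distribution from -0.01 to 0.29, and the median over all listed genes was -0.01. Past 1.5-fold were 3 members, which is 6.0% of them, against 17.2% of all listed genes and 16.4% of those at a mean of 10 FPKM or more. Among the 39 members at such a mean, 30 (76.9%) were higher and the same 3 (7.69%) were past 1.5-fold. All 3 were higher in sh-CRNDE, as were 8.38% of all listed genes and 8.19% of the better expressed ones. No member was lower past the threshold, against 8.83% and 8.22%. The change lay within 0.2 of 0 in 28 members (56.0%), against 42.4% of all listed genes. Fewer members than genes in general were thus past the threshold, and more of them were higher than lower.

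The largest change of a single listed gene among the members was that of EIF1AX (ENSG00000173674, chromosome X, 20124525 to 20141838, minus strand, GRCh38), which encodes eIF1A, the factor in the A site of the scanning subunit. EIF1AX was at 10.97 FPKM under sh-Control and 57.97 under sh-CRNDE, a 5.29-fold ratio and a change of 2.30. Of all listed genes, 99.3% had a lower change. EIF5B (ENSG00000158417, chromosome 2, 99337371 to 99401326, plus strand), the GTPase of subunit joining, was at 28.95 FPKM under sh-Control and 52.6 under sh-CRNDE, a change of 0.84. Both genes were thus higher in sh-CRNDE, EIF1AX by far the more. EIF1AD, named for its eIF1A-like domain, was at 4.96 FPKM under sh-Control and 7.74 under sh-CRNDE, a change of 0.55 that is not past 1.5-fold on this scale. The partners of eIF1A at the start codon had changes close to 0. EIF1, which guards the choice of start codon, was at 40.0 FPKM under sh-Control and 37.7 under sh-CRNDE (-0.09). Its paralog EIF1B was at 15.1 and 17.1 FPKM (0.17), and EIF5, which activates GTP hydrolysis by eIF2, at 27.3 and 30.5 FPKM (0.15). EIF1AX was at 0.274 times the level of EIF1 in sh-Control and at 1.54 times in sh-CRNDE. Such a ratio within a library does not depend on its scaling.

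The second large change was in a helicase partner. EIF4H (ENSG00000106682, chromosome 7, 74174231 to 74197122, plus strand) was at 34.8 FPKM under sh-Control and 141.1 under sh-CRNDE, a 4.05-fold ratio and a change of 1.99. EIF4B (ENSG00000063046, chromosome 12, 53006282 to 53042215, plus strand), which acts on the same helicase, went the other way, from 102.1 FPKM under sh-Control to 68.6 under sh-CRNDE. Its change of -0.57 was just short of 1.5-fold and the lowest of all members on this scale, while EIF2S3L was lower than EIF4B with smaller pseudocounts and on TPM. EIF4H was at 0.341 times the level of EIF4B in sh-Control and at 2.06 times in sh-CRNDE, so the order of these paired stimulators was opposite in the libraries. The changes of the helicase genes themselves were close to 0, with EIF4A1 at 110.0 and 120.6 FPKM in sh-Control and sh-CRNDE (0.13) and EIF4A2 at 25.9 and 25.5 FPKM (-0.02). EIF4A3, the helicase of the exon junction complex, was at 24.7 FPKM under sh-Control and 23.2 under sh-CRNDE (-0.09).

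The cap-binding protein gene EIF4E (ENSG00000151247) was at 7.31 FPKM under sh-Control and 10.8 under sh-CRNDE, a change of 0.50. This was far below the main scaffold and helicase genes in both libraries. EIF4G1, the main scaffold, was at 12.5 times the level of EIF4E in sh-Control and at 7.08 times in sh-CRNDE, and EIF4A1 at 15.0 and 11.2 times. EIF4G1 itself was lower in sh-CRNDE, with 91.4 FPKM under sh-Control and 76.3 under sh-CRNDE (-0.26), while its paralog EIF4G3 was higher, with 10.5 and 13.3 FPKM (0.31). EIF4G2, a relative of the scaffold that lacks the eIF4E-binding part, was among the highest members in both libraries, at 134.3 and 139.2 FPKM (0.05). EIF4E2, a cap-binding protein that does not bind the scaffold, was at 5.75 FPKM under sh-Control and 7.21 under sh-CRNDE (0.28), and EIF4ENIF1, which carries eIF4E into the nucleus and to P-bodies, at 4.54 and 5.05 FPKM (0.13).

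The genes of the 3 eIF4E-binding proteins were all slightly lower in sh-CRNDE. EIF4EBP1 was at 25.1 FPKM under sh-Control and 21.9 under sh-CRNDE (-0.19), EIF4EBP2 at 88.1 and 86.5 FPKM (-0.03), and EIF4EBP3 at 2.24 and 1.79 FPKM (-0.21). The ratio of EIF4EBP1 to EIF4E was 3.43 in sh-Control and 2.04 in sh-CRNDE, and that of EIF4EBP2 to EIF4E was 12.1 and 8.03. In both libraries EIF4EBP1 and EIF4EBP2 were thus listed above the gene of the protein that they bind, and EIF4EBP3 below it.

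Of the eIF2 genes, 4 of 6 listed were higher in sh-CRNDE and none was past 1.5-fold. EIF2S2, the beta subunit, had the highest change, with 71.7 FPKM under sh-Control and 101.5 under sh-CRNDE (0.50). EIF2S1, the alpha subunit that the stress kinases phosphorylate, was at 31.4 and 36.6 FPKM (0.21), and EIF2S3, the gamma subunit, at 98.9 and 110.8 FPKM (0.16). The alpha subunit gene was the lowest of these in both libraries, with a ratio of the highest to the lowest of 3.14 in sh-Control and 3.03 in sh-CRNDE. EIF2A, a factor distinct from the alpha subunit of eIF2, was at 24.5 FPKM under sh-Control and 27.9 under sh-CRNDE (0.18). EIF2D, which can deliver tRNA independently of eIF2, was at 3.94 and 3.21 FPKM (-0.23). EIF2S3L, a single-exon copy of EIF2S3 that the annotation names EIF2S3B, was the lowest member, at 1.01 FPKM under sh-Control and 0.561 under sh-CRNDE (-0.36).

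The 5 subunit genes of eIF2B differed among themselves, and none was past 1.5-fold. EIF2B3, part of the catalytic core, was at 8.52 FPKM under sh-Control and 13.1 under sh-CRNDE (0.57), and EIF2B1, a regulatory subunit, at 23.9 and 35.6 FPKM (0.55). Both were just short of 1.5-fold on this scale, and EIF2B3 was past it with smaller pseudocounts and on TPM. The catalytic subunit EIF2B5 was at 11.95 and 12.4 FPKM (0.05), the regulatory subunit EIF2B2 at 6.43 and 6.51 FPKM (0.02) and EIF2B4 at 9.10 and 8.06 FPKM (-0.16). The ratio of the highest subunit, EIF2B1, to the lowest, EIF2B2, was 3.72 in sh-Control and 5.46 in sh-CRNDE. All 4 genes of the eIF2alpha kinases were higher in sh-CRNDE, EIF2AK1 so slightly that subtraction of GC-bin medians turned it to -0.03, and none was past 1.5-fold. EIF2AK4 (GCN2), which senses missing amino acids, was at 9.84 FPKM under sh-Control and 12.4 under sh-CRNDE (0.31). EIF2AK2 (PKR), which senses double-stranded RNA, was at 11.6 and 13.7 FPKM (0.22). EIF2AK3 (PERK), the kinase of the endoplasmic reticulum, was the lowest at 2.28 and 2.60 FPKM (0.13), and EIF2AK1 (HRI), the heme-regulated kinase, the highest at 37.3 and 38.7 FPKM (0.05).

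The 14 genes of eIF3, the scaffold that holds the other factors on the small subunit, formed the largest group of members. Their median change was 0.08, 10 lay within 0.2 of 0, and none was past 1.5-fold. Of the 14, 12 were higher in sh-CRNDE, although EIF3H turned lower and EIF3C higher after subtraction of GC-bin medians, and EIF3I turned lower after quantile normalization. EIF3J, the loosely bound subunit, had the highest change, with 48.0 FPKM under sh-Control and 70.9 under sh-CRNDE (0.55). EIF3A, the largest subunit, was at 117.0 and 143.2 FPKM (0.29), and EIF3M at 31.1 and 37.1 FPKM (0.25). EIF3B, EIF3D, EIF3G, EIF3H, EIF3I, EIF3K and EIF3L, from the core and the outer modules, had changes from 0.03 to 0.18. EIF3F was the lowest in level and in change, with 14.1 FPKM under sh-Control and 12.6 under sh-CRNDE (-0.15). Its pseudogene EIF3FP3, a much shorter gene, is listed at 0 under sh-Control and at 2.26 FPKM under sh-CRNDE. The plain sum of both FPKM values had a change of 0.07. Such a sum gives the shorter copy the same weight as EIF3F and rests on a listed 0. The direction of their joint signal cannot be read from it. Without EIF3J and the copy EIF3CL, EIF3A was listed at 8.32 times the level of EIF3F in sh-Control and at 11.4 times in sh-CRNDE. The listed FPKM of these subunits were thus far from equal. The part of annotated transcript length and of read division between copies in this spread was not tested. EIF3E was at 57.0 FPKM under sh-Control and 71.4 under sh-CRNDE (0.32). RP11-452N17.1, annotated as a single-exon pseudogene on chromosome 2, holds 11.3% of the 50-base stretches of the EIF3E transcript. It was at 30.5 FPKM under sh-Control but is listed at 0 under sh-CRNDE. The plain sum of the FPKM of this gene and EIF3E had a change of -0.29, opposite to that of EIF3E alone. This sum too ignores length and rests on a listed 0. How reads were divided between these genes was not tested.

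The last group acts outside start codon recognition, and 3 of its 4 genes were lower in sh-CRNDE, although EIF5A turned higher and EIF5A2 lower after subtraction of GC-bin medians. EIF5A, whose protein carries the modified residue hypusine and helps the ribosome through difficult stretches, was at 116.1 FPKM under sh-Control and 108.2 under sh-CRNDE (-0.10). EIF6, which keeps the large subunit from joining too early, was at 41.7 and 35.2 FPKM (-0.23). EIF5A2 was at 2.24 and 2.41 FPKM (0.07), or 0.0193 times the level of EIF5A in sh-Control and 0.0223 times in sh-CRNDE, and EIF5AL1 at 1.94 and 1.76 FPKM (-0.09).

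Several members have near-copies in the genome that could take or lend reads, and the listed values of these copies are shown here because EIF1AX and EIF4H have them. EIF5B shares no stretch with another listed gene. Of the 50 members, 25 share at least 1 stretch of 50 bases with a transcript of another listed gene, and 12 share over 10% of their stretches. A shared stretch is not by itself a near-copy. EIF2AK2 shares stretches with 125 listed genes and EIF3H with 80, but only 0.78% and 0.43% of their stretches are shared. EIF3C and EIF3CL share 98.8% of the EIF3C stretches, so most reads could belong to either gene, and their sum was 154.1 FPKM under sh-Control and 155.3 under sh-CRNDE, a change of 0.01. EIF1AXP1, a pseudogene on chromosome 1, was at 30.99 FPKM under sh-Control and 38.8 under sh-CRNDE (0.31), so that in sh-Control it was listed above EIF1AX itself. It holds 6.94% of the EIF1AX stretches, and 78.5% of its own stretches are in EIF1AX. The sum of EIF1AX and EIF1AXP1 was 41.96 FPKM under sh-Control and 96.7 under sh-CRNDE, a change of 1.19. EIF4HP1, on chromosome 7, was at 15.9 FPKM under sh-Control and 19.6 under sh-CRNDE (0.28), and its sum with EIF4H had a change of 1.64. In these plain sums of FPKM, EIF1AX and EIF4H were still past 1.5-fold. The sums give the much shorter pseudogenes the same weight as their parents, so the order of EIF1AX and EIF4H cannot be read from them.

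For EIF4E and EIF4B, adding the FPKM of the copies changed the call. EIF4EP2, whose stretches are 82.15% contained in EIF4E, is listed at 0 under sh-Control and reached 8.81 FPKM in sh-CRNDE. The sum of EIF4E and EIF4EP2 had a change of 1.31, past 1.5-fold. This sum gives the much shorter copy the same weight as EIF4E and rests on a listed 0. EIF2S2P4 was at 8.75 FPKM under sh-Control and 17.5 under sh-CRNDE (0.92), and its sum with EIF2S2 had a change of 0.56. Both listed pseudogenes of EIF4B were lower in sh-CRNDE. EIF4BP6 was at 7.42 FPKM under sh-Control and 1.94 under sh-CRNDE (-1.52), and EIF4BP7 was at 3.20 FPKM under sh-Control but is listed at 0 under sh-CRNDE. The sum with EIF4B had a change of -0.67, past 1.5-fold. EIF5AP4 is listed at 0 under sh-Control and reached 10.1 FPKM in sh-CRNDE, and its sum with EIF5A had a change of 0.03, against -0.10 for EIF5A alone. EIF4A1P10 was at 1.46 FPKM under sh-Control and 2.01 under sh-CRNDE (0.29), and its sum with EIF4A1 had a change of 0.14. The listed gene RP11-186B7.4 holds far more of the EIF4A1 stretches, 91.69%. It was at 1.66 FPKM under sh-Control and 1.07 under sh-CRNDE (-0.37), and its sum with EIF4A1 had a change of 0.12. These sums ignore that the copies differ in length, and they were added after the values were seen.

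**Figure D2:**
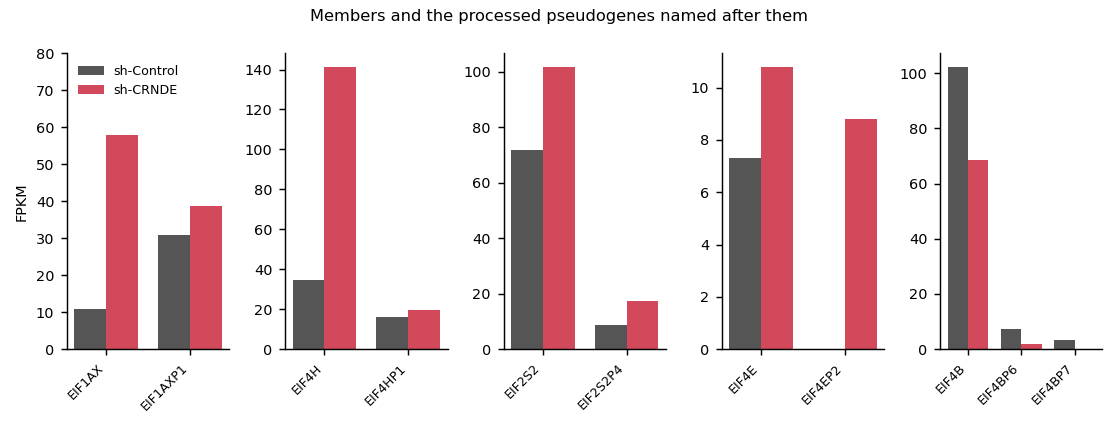
FPKM (bars, each panel with its own axis from 0) of 5 members and the processed pseudogenes named after them, with grey bars for sh-Control and red bars for sh-CRNDE. EIF1AX and EIF4H are higher in sh-CRNDE by far more than EIF1AXP1 and EIF4HP1, EIF4EP2 is listed at 0 in sh-Control, and all 3 EIF4B bars are lower in sh-CRNDE.

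Start windows of the members were read from RefSeq (GRCh38.p14), because a C followed directly by at least 4 bases of C or T at the 5' end is the mark of mRNAs whose translation follows mTOR, and several initiation factors are known for it. Of the 50 members, 41 matched a window. Where a gene had several windows, the one with the longest run was taken, in all of these counts. So counted, 9 of the 41 (22.0%) began in this way on the gene's strand. The share was 7.83% of the 7940 listed genes with a window and 5.14% of all 27305 genes of the table. Each line below gives 20 bases before and 10 bases from the annotated start, 5' to 3', with the pyrimidine run in capitals. The first 3 are the members past 1.5-fold, which have no run at this position, and the others are the 9 members with one.
EIF1AX (chrX:20141829-20141858, minus strand): gcgacgcaaagagtcgcggcgccatttgct
EIF4H (chr7:74174336-74174365, plus strand): ggggtccttcctcgctcaccctggttcctc
EIF5B (chr2:99337369-99337398, plus strand): cgcttgcgcactgagaactcacaccatatg
EIF4B (chr12:53006436-53006465, plus strand): cgtgattgcctcatccgggtCTTTTgcgtt
EIF4A2 (chr3:186783557-186783586, plus strand): gggtggttgggcgccgctgtCTTTTCagtc
EIF2A (chr3:150546767-150546796, plus strand): aactctcacccgagcggtttCTCTTTCCgg
EIF2D (chr1:206612456-206612485, minus strand): gccctggtttccagccgggcCCTTTTCgcg
EIF2S3 (chrX:24054936-24054965, plus strand): cagccggggtgatttccttcCTCTTTTggc
EIF3D (chr22:36529157-36529186, minus strand): ccgctgcgcgcgcatgtttcCTCTTTTCCT
EIF3F (chr11:7987317-7987346, plus strand): gtcatttccgcttccgcctcCTTCTTTCTC
EIF3K (chr19:38619168-38619197, plus strand): gtcgtttccgtttccaccacCTCTTCCTgt
EIF3M (chr11:32583811-32583840, plus strand): gcgtcgcgcggcccagttccCTTTTCCggt

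Of the 9 members with a pyrimidine run, 5 were higher in sh-CRNDE and 4 lower, with changes from -0.57 to 0.25 and a median of 0.05. The 32 members with another start had a median of 0.13, and 24 of them were higher. Over the listed genes the medians were -0.02 with a run and -0.01 without. A window with no run says only that these letters are not at its annotated start, and the starts used in NB4 were not measured.

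The study examined a link of CRNDE to the miR-181 family, microRNAs that pair with an mRNA through bases 2 to 8, so the members were searched for the matching site. The mature sequences below are from RefSeq, with this seed in capitals, and all 4 share it.
hsa-miR-181a-5p: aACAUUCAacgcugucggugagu
hsa-miR-181b-5p: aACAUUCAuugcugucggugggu
hsa-miR-181c-5p: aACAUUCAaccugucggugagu
hsa-miR-181d-5p: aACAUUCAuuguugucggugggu

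The match TGAATGT was looked for on the transcript strand of the 3' UTR of the canonical transcript. It was present in 7 of 50 members (14%), at 9 places, against 21.4% of the 9945 listed protein-coding genes. The 30-base windows below (GRCh38) show these places, with the match in capitals.
EIF1 (chr17:41692610-41692639, plus strand): ttgtgtggatggcttTGAATGTggcccaac
EIF2AK1 (chr7:6022763-6022792, minus strand): atgatggtaagttctTGAATGTgagggcaa
EIF2AK2 (chr2:37104755-37104784, minus strand): ttattagacaaatccTGAATGTagtcattc
EIF2S3 (chrX:24078638-24078667, plus strand): catattgtgctcttgTGAATGTtgaagttg
EIF3F, first place (chr11:7997646-7997675, plus strand): gagtaacaatataggTGAATGTtaataata
EIF3F, second place (chr11:7999702-7999731, plus strand): cttttacacttggtgTGAATGTaaattagt
EIF3M, first place (chr11:32603162-32603191, plus strand): gaaaagtatacaatgTGAATGTgtaggctt
EIF3M, second place (chr11:32603659-32603688, plus strand): tatatctcctactacTGAATGTttgtttcc
EIF4A2 (chr3:186789850-186789879, plus strand): tgtcttaatgaagttTGAATGTtaaataaa

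The 7 members with a match had a median change of 0.05, with 4 higher and 3 lower in sh-CRNDE and none past 1.5-fold, and the other members had a median of 0.13. Of the 2132 listed protein-coding genes with a match, 190 were higher and 145 lower past 1.5-fold. With only 7 members, the lack of a call cannot be told apart from that background. Over all listed protein-coding genes the median was 0.05 with a match and -0.03 without. The median 3' UTR length was 1058 bases over the members and 1276 over these genes. The part of 3' UTR length and of base composition in these differences was not tested. EIF1AX, EIF4H, EIF5B and EIF4B hold no match in this 3' UTR.

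The other translation genes, from a list of 48 of which 45 are listed, gave 1 gene higher and 3 lower past 1.5-fold, with a median change of 0.02. That is 8.89% of them past the threshold, against 17.2% of all listed genes. The number lower was 2 after quantile normalization and 2 after GC subtraction. Here 23 of 45 genes were higher and 22 lower. GSPT1, a termination factor, was higher, with 23.5 FPKM under sh-Control and 36.6 under sh-CRNDE (0.62), and was not past 1.5-fold after quantile normalization. AKT1S1, an inhibitory part of the mTOR complex, was lower, with 5.64 and 2.88 FPKM (-0.78). PPP1R15A, a regulatory subunit of the phosphatase that acts on eIF2alpha, was at 4.39 FPKM under sh-Control and 2.57 under sh-CRNDE (-0.59). PPP1R15B, the other such subunit, was at 17.0 FPKM under sh-Control but is listed at 0 under sh-CRNDE. An exact 0 in these files can be a failed estimate, and this one is among the 3 counted as lower. The kinase gene MTOR was at 12.7 FPKM under sh-Control and 9.55 under sh-CRNDE (-0.37). PABPC1, the poly(A)-binding protein that contacts eIF4G, was at 354.2 and 295.0 FPKM (-0.26). Of the elongation factor genes, none was past 1.5-fold, with EEF1A1 at 982.7 and 1061 FPKM (0.11) and EEF2 at 433.9 and 365.0 FPKM (-0.25). The 3 genes of mitochondrial initiation, MTIF2, MTIF3 and MTFMT, were all higher in sh-CRNDE by 0.22 to 0.36, short of 1.5-fold.

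Base composition moved with the changes. Across the 50 members, whose transcripts share a library and differ in length, Spearman's rho between change and GC content of the canonical transcript was -0.43, and across the 11508 listed genes with an annotation it was -0.39. EIF1AX has a GC content of 35.1%, EIF5B 38.4%, EIF4H 51.9% and EIF4B 44.8%, and the median over the members was 46.3%. After subtraction of the median change in bins of GC content, the change was 2.10 for EIF1AX, 2.05 for EIF4H and 0.67 for EIF5B, all still past 1.5-fold. EIF4B, at -0.64, was then past it too. The median change of the members was 0.07 after this subtraction, and 34 of 50 members were above 0.

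**Figure D3:**
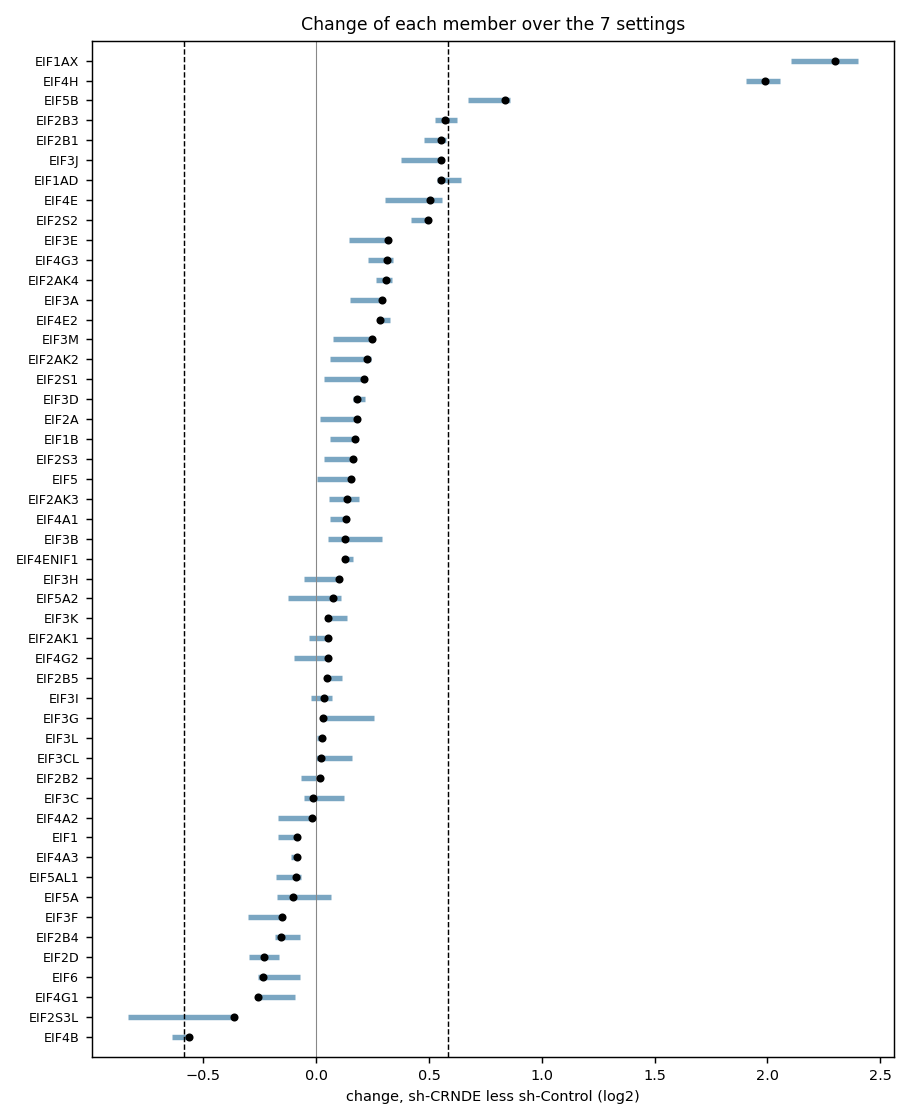
Change of each member on the log2 scale (black points) with the lowest and highest value over the 7 settings tried (blue bars), and dashed lines at 1.5-fold. The bars of EIF1AX (2.10 to 2.40), EIF4H (1.91 to 2.05) and EIF5B (0.67 to 0.86) lie wholly to the right of the right-hand line, while those of EIF4B, EIF2S3L, EIF2B3 and EIF1AD cross a line.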

How the data were processed

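Total RNA of 2 NB4 cultures, 1 for sh-Control and 1 for sh-CRNDE, was sequenced on an Illumina MiSeq after TruSeq RNA library preparation. The deposited FPKM values were made by the authors with fastp 0.20.0, HISAT2 2.0.4 and StringTie 1.2.3 on GRCh38, per the submitters' processing notes, and the annotation release is not given in the sources used here. Genes appear only where at least 1 library was above 0.5 FPKM, so a gene under that in both is not analysed here. The libraries were joined by gene identifier and compared on log2(FPKM + 1) with Python 3.11.15, numpy 2.4.6, pandas 2.3.3, scipy 1.17.1 and matplotlib 3.10.9. Because each group has 1 library and FPKM holds no counts, no test was run, and calls are by size only, past 1.5-fold. The calling step was tested on simulated data with noise set in advance, which does not measure the error of calls in these libraries.

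Positions, GC content, shared 50-base stretches and 3' UTRs came from the canonical transcripts of GENCODE release 44, which held all 50 members and 11508 of the 11619 listed genes. Members were described with their values, some eIF3 genes only by a range of changes or as a sum. Other genes were taken from a list of translation genes. The members and lists were chosen with earlier results of these data known. One marker gene is not reported here. Alternatives were pseudocounts of 0.1 and 0.01, centring, quantile normalization, TPM without mitochondrial, ribosomal and SRP RNA genes, subtraction of the median change in 20 GC bins, a 2-fold threshold, minimum means of 1 and 10 FPKM, and summed copies.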

Additional observations from a re-analysis of the deposited data

How the results depend on the processing

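EIF1AX, EIF4H and EIF5B were past 1.5-fold in all 7 settings of scaling and pseudocount, 43 members were past it in none, and 42 of 50 kept their sign. These counts leave out the sums with pseudogenes. The sign turned for EIF2AK1, EIF2B2, EIF3C, EIF3H, EIF3I, EIF4G2, EIF5A and EIF5A2, none of which was called. The number of members higher past 1.5-fold was 5 with a pseudocount of 0.1, 5 with 0.01 and 5 on TPM, where EIF1AD and EIF2B3 were added, and 4 with pseudogenes summed, where EIF4E was added. The number lower was 1 with a pseudocount of 0.1, 1 with 0.01 and 1 on TPM (EIF2S3L), and 1 after quantile normalization, 1 after GC subtraction and 1 with pseudogenes summed (EIF4B), the last chosen after seeing the data. At 2-fold, EIF1AX and EIF4H were past the threshold, against 6.66% of all listed genes. Over all genes in a setting, 28.4% were past 1.5-fold with a pseudocount of 0.1, 30% with 0.01 and 27.7% on TPM, against 17.2% in the main one. That share was 17.2% after quantile normalization, 14.7% after GC subtraction and 17.2% with pseudogenes summed. Genes in general were thus also called more often with smaller pseudocounts and on TPM. After GC subtraction the median change was 0.025 for the eIF2 genes and 0.058 for the eIF2alpha kinases, against 0.17 and 0.18. Of the other translation genes, 2 were higher and 5 lower with a pseudocount of 0.01, 5 were lower on TPM, and 0 were higher after quantile normalization. The cause of these shifts was not tested, beyond the larger weight that small pseudocounts give to low genes.

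No paired analysis was possible because each group holds 1 library, and no library was left out for the same reason. Depth is unknown, and no counting error is given for any FPKM value.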
